A study of Homo sapiens with 16 samples.

Results

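Induction of a short hairpin RNA against AKAP2 was followed across all measured genes in 1 line made from MDA-MB-231, an established human line of triple-negative breast cancer. The compared groups were shAKAP2 cells given doxycycline, which switches the hairpin on (induced, 4 libraries), and shAKAP2 cells given none (uninduced, 4 libraries). These are 8 of the 16 libraries of the series, chosen by their labels, and both groups carry the hairpin construct. The other 8 libraries hold the same cells with a scrambled hairpin, shScramble, again 4 with doxycycline and 4 without it, and serve here only for the spread and for values set side by side. Each group's 4 libraries are labelled as biological replicates, and nothing says whether they are separate cultures. The p-values therefore weigh effects against a spread that may in part be technical. The labels give no doxycycline dose or duration, no number of clones in the line and no hairpin sequence. Because induced cells differ from uninduced cells both in doxycycline and in the hairpin, the effects of these cannot be told apart within this line.

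A-kinase anchoring proteins hold protein kinase A, the kinase that cAMP switches on, close to its substrates. AKAP2 is one of them and binds the regulatory subunits of the kinase. The series is titled around its part in signalling at focal adhesions, the sites where integrins link the matrix outside the cell to actin inside it. A short hairpin RNA is cut into a guide of small RNA length that Argonaute proteins use to find matching transcripts. A guide can lower a fully matching transcript by cutting it, and it can also lower other transcripts that pair with its 5′ end, the seed, mostly in their 3′ untranslated regions (3′ UTRs).

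Polyadenylated RNA was sequenced to 24482997 to 27366722 counts in induced and 26082100 to 36362321 counts in uninduced libraries, and 15566 genes had enough counts to be tested. Levels are given as CPM, counts per 1e6 of the scaled library, except that the marker levels and sums in this paragraph use unscaled library totals. The first principal component over the 8 libraries held 41.0% of the variance and separated induced from uninduced. The second held 11.8% and had induced replicates 1 and 3 at its ends. Mitochondrially encoded genes took 1.02% to 2.04% of counts in induced and 1.86% to 2.38% in uninduced libraries. All 12 markers of triple-negative lines were detected, and their summed level was 7031 to 7361 CPM in induced and 8314 to 8541 CPM in uninduced libraries. Luminal epithelial markers summed to 1395 to 1549 CPM in induced and 1204.0 to 1255 CPM in uninduced libraries, with 2 of 16 at 0 in these 8 libraries. Pooled over the libraries of each group, most of the luminal sum was KRT8 (722 against 549 CPM), KRT18 (395 against 343 CPM) and KRT19 (215 against 171 CPM). Of the 12 luminal markers tested, 2 were higher and 3 lower in induced cells at an adjusted p under 0.05 in the test given below, with a median log2 fold change of -0.10. Blood cell markers summed to 50.9 to 67.5 CPM in induced and 73.4 to 83.8 CPM in uninduced libraries, with 4 of 16 at 0. Most of that sum was 1 gene, LAPTM5, with 48.0 CPM in induced and 65.4 CPM in uninduced cells. In the shScramble line 6 of the 9 blood cell markers tested were higher with doxycycline at an adjusted p under 0.05, and 0 lower. Fibroblast markers summed to 21.4 to 24.5 CPM in induced and 23.2 to 35.7 CPM in uninduced libraries, with 1 of 12 at 0, and endothelial markers to 3.40 to 8.41 CPM in induced and 4.33 to 5.97 CPM in uninduced libraries, with 1 of 9 at 0. What part these shifts have in the results was not tested, and in bulk RNA fewer cells of a kind and less RNA per cell cannot be told apart.

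AKAP2 (ENSG00000241978) lies on GRCh38 chromosome 9, 110048598 to 110172512, plus strand. As the target of the hairpin, it had 3, 0, 1 and 0 counts in the induced libraries, against 42, 36, 37 and 53 counts in the uninduced libraries. The groups did not overlap. Relative to the library totals, induced cells kept 2.66% of the uninduced level (95% exact interval 0.718% to 6.95%, which covers counting error only). The log2 fold change was -5.06 with a standard error (SE) of 0.577 and an adjusted p of 1.25e-06. AKAP2 shares 85.8% of its exonic bases with PALM2-AKAP2 on the same strand, so reads from these 2 genes may not have been told apart. PALM2-AKAP2 had 0.124, 0.0367, 0.0376 and 0 CPM in the induced libraries, against 0.339, 0.192, 0.609 and 0.218 CPM in the uninduced libraries. These are levels of a few counts, and the groups did not overlap (log2 fold change -2.71, SE 0.851, adjusted p = 0.0213). That call was lost without induced replicate 2, 3 or 4 or uninduced replicate 3 (adjusted p from 0.0551 to 0.0723).

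Transcripts that were lower in induced cells often held the 7-letter word GAACACA in their 3′ UTR. It is also in the 3′ UTR of AKAP2 and of many of the abundant genes described next. The stretches of 30 bases around it in 13 such transcripts are shown here so that the word can be seen in its setting. They are from GENCODE release 29 on GRCh38, written 5′ to 3′ on the transcript strand, with the word in capitals:
AKAP2 (chr9:110169246-110169275, plus strand): tgcagtttatgaGAACACAttttcacagtt
ATL3 (chr11:63629277-63629306, minus strand): aagatcaaacaaGAACACAacaagccccta
NAP1L4 (chr11:2944499-2944528, minus strand): ggcctaaccttaGAACACAtttgtaactga
GCNT2 (chr6:10627774-10627803, plus strand): agtttaatacagGAACACAcagggctgtgt
GCNT2 (chr6:10628312-10628341, plus strand): gacacatttaatGAACACAattttattttt
ACO1 (chr9:32450429-32450458, plus strand): taatcttcagctGAACACAagcaaaccttc
ACO1 (chr9:32450778-32450807, plus strand): ggcggtttgggaGAACACAtttctaatttg
ACO1 (chr9:32452407-32452436, plus strand): tctgccatgggaGAACACAgcaagaagtca
SEC23A (chr14:39032050-39032079, minus strand): ttgtacttgcatGAACACAatcatatgatg
TFG (chr3:100748676-100748705, plus strand): tataatttgctgGAACACAaagaccaaaat
LMAN1 (chr18:59328140-59328169, minus strand): aatttttgtaaaGAACACAaatagcagttg
FOSL2 (chr2:28416607-28416636, plus strand): tacattgtaagaGAACACAgtggaagatcc
NCAPD3 (chr11:134152620-134152649, minus strand): ctggtctttaagGAACACAactttaaaact
VCL (chr10:74118934-74118963, plus strand): tagccatcccatGAACACActgtgtcctgg
LPGAT1 (chr1:211745441-211745470, minus strand): tgtaaaactgttGAACACAtgactgtgatg
TXNRD1 (chr12:104349473-104349502, plus strand): tattaatattttGAACACAggtggatgtga
A match describes letters and not a site of binding.

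Induction changed a large part of the transcriptome, in both directions. Of the genes tested, 2032 were called higher (13.1%) and 2373 lower (15.2%) in induced cells, together 28.3%, where a call is an adjusted p under 0.05 in edgeR's quasi-likelihood test. Most called changes were small: 1446 of those higher and 1230 of those lower were under 1.5-fold. At least 2-fold changes were found for 202 genes called higher (1.30%) and 485 called lower (3.12%). The median log2 fold change was 0.41 over genes called higher, -0.57 over genes called lower and 0.00 over all. The summed gain was 58669 CPM over genes called higher, and the summed change was -61623 CPM over genes called lower. CPM are parts of a scaled total, so gains and losses over all genes must nearly offset each other. The near balance of these 2 sums is therefore no result about the cells. The induced and uninduced libraries did not overlap for 36.5% of all genes tested (18.4% higher, 18.1% lower). Among genes called, this held for 1906 of those higher and 2193 of those lower. Fitted on these 8 libraries without shScramble, the counts were 3144 higher and 3169 lower. Fitted without the 2 shScramble libraries of replicate 1, which stand apart from their groups, they were 3037 and 3165.

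**Figure D1:**
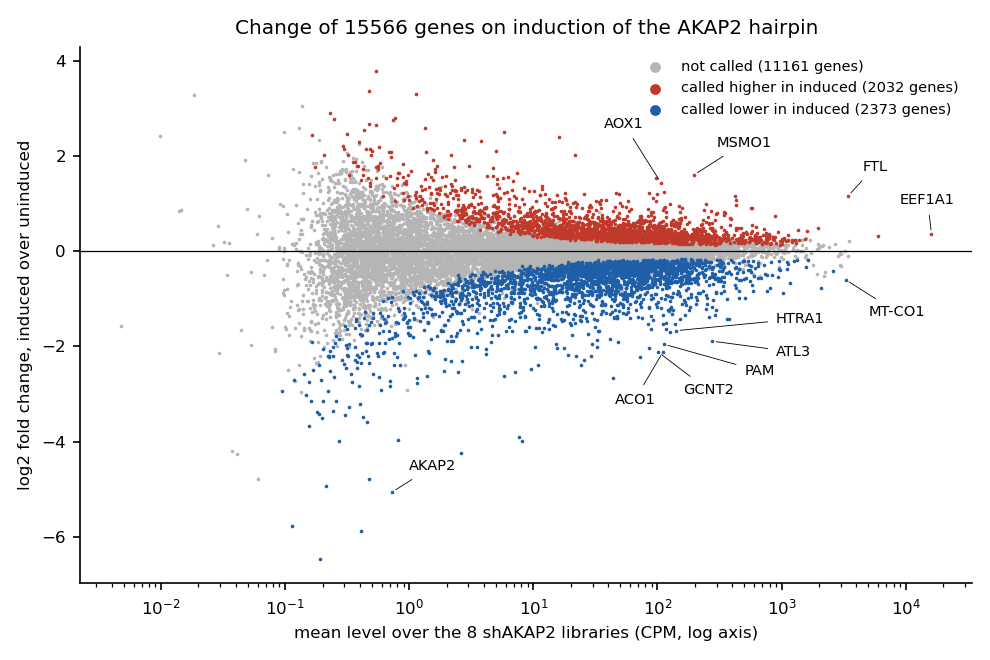
Log2 fold change of each of 15566 genes in induced over uninduced shAKAP2 cells (y axis) against its mean level over the 8 libraries in CPM (x axis, log scale). Points are genes, coloured by call (2032 higher, 2373 lower), and 11 genes named in the text are labelled.

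The share of genes called depended on level. Below 1 CPM, 2.12% of genes were called higher and 4.81% lower. Between 30 and 100 CPM these shares were 17.8% and 21.2%. Above 300 CPM they were 25.4% and 16.2%, so that only in the bins from 100 CPM upward did calls of higher outnumber calls of lower. The median log2 fold change moved from -0.07 in the lowest of the 7 bins to 0.07 in the highest. Chromosomes differed little, with medians between -0.05 on chromosome 9 and 0.04 on chromosome 3, apart from the mitochondrial genome at -0.42.

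Among abundant genes, those at 100 CPM or more, the largest drop was that of GCNT2, which makes the branches of the I antigen on glycans. It had 33.8, 37.9, 44.7 and 35.5 CPM in the induced libraries, against 164, 162, 168 and 165 CPM in the uninduced libraries. Every induced library was below every uninduced one, with spreads within each group that were small next to the gap (log2 fold change -2.12, SE 0.0838, adjusted p = 2.93e-13). ACO1, the cytosolic aconitase that without its iron-sulfur cluster binds iron-responsive elements in mRNAs, had 42.1, 43.4, 37.6 and 43.1 CPM in the induced libraries, against 180.3, 179, 181 and 181 CPM in the uninduced libraries. The groups again lay far apart (log2 fold change -2.12, SE 0.0785, adjusted p = 1.25e-13). ATL3, an atlastin that fuses membranes of the endoplasmic reticulum (ER), had 117, 115, 115 and 124 CPM in the induced libraries, against 426, 434, 423 and 456 CPM in the uninduced libraries. Induced cells kept about the same low level in all 4 libraries (log2 fold change -1.89, SE 0.0574, adjusted p = 5.09e-15). PAM, which amidates the ends of peptide hormones, had 44.8, 46.7, 47.3 and 46.2 CPM in the induced libraries, against 175, 168, 187 and 186 CPM in the uninduced libraries. Its groups lay as far apart (log2 fold change -1.95, SE 0.195, adjusted p = 2.14e-06). The 3′ UTR read for PAM holds no copy of the word, while another annotated 3′ UTR of the gene and its coding sequence hold it.

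The other abundant genes with large drops act in several compartments. NAP1L4, a histone chaperone, averaged 59.1 ± 3.91 CPM in induced and 192 ± 4.53 CPM in uninduced cells (SD, n = 4 each), a log2 fold change of -1.70 ± 0.0600 (SE). SEC23A, a subunit of the COPII coat that buds vesicles from the ER, averaged 57.7 ± 4.58 CPM in induced and 178 ± 3.85 CPM in uninduced cells (SD, n = 4 each). FOSL2, an AP-1 transcription factor, averaged 71.6 ± 3.68 CPM in induced and 205 ± 10.6 CPM in uninduced cells (SD, n = 4 each). NCAPD3, a condensin II subunit, averaged 56.8 ± 1.09 CPM in induced and 163 ± 6.26 CPM in uninduced cells (SD, n = 4 each). HTRA1, a secreted serine protease, averaged 67.3 ± 9.71 CPM in induced and 214 ± 24.5 CPM in uninduced cells (SD, n = 4 each), and its libraries ranged more widely than those of the rest. GFPT1, the first enzyme of the hexosamine pathway, averaged 60.7 ± 5.84 CPM in induced and 172 ± 2.73 CPM in uninduced cells (SD, n = 4 each). All 10 of these abundant genes also passed the interaction test, which asks whether doxycycline acted differently in the shAKAP2 and the shScramble line, with adjusted p-values up to 0.00442. In the shScramble line their log2 fold changes ran from -0.29 (HTRA1) to 0.20 (GFPT1), and none was called.

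Among abundant genes that were higher, MSMO1 had the largest fold. MSMO1 is a sterol methyl oxidase of cholesterol synthesis and had 255, 289.8, 324 and 314 CPM in the induced libraries, against 82.04, 87.9, 94.9 and 123 CPM in the uninduced libraries. The groups did not overlap, yet the fitted spread was wide (log2 fold change 1.61, SE 0.376, adjusted p = 0.00603). HMGCS1, which makes HMG-CoA in the same pathway, had 145, 152, 156 and 187 CPM in the induced libraries, against 57.98, 66.2, 57.9 and 87.3 CPM in the uninduced libraries (log2 fold change 1.25, SE 0.310, adjusted p = 0.00818). For both, the difference from the shScramble line did not pass the interaction test (adjusted p = 0.072 for MSMO1 and 0.102 for HMGCS1). AOX1, an aldehyde oxidase, averaged 156 ± 4.38 CPM in induced and 57.3 ± 6.98 CPM in uninduced cells (SD, n = 4 each). Its log2 fold change of 1.45 ± 0.247 (SE) ranked between those of MSMO1 and HMGCS1, and it passed the interaction test (adjusted p = 0.0201).

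FTL, the light chain of the iron store ferritin, had 4859, 4963, 5111 and 4043 CPM in the induced libraries, against 2163, 2064, 2243 and 1981 CPM in the uninduced libraries. Every induced library lay above every uninduced one (log2 fold change 1.17, SE 0.0774, adjusted p = 5.02e-10). DKK1, a secreted inhibitor of WNT signalling, had 489.5, 597, 598 and 632 CPM in the induced libraries, against 253, 261, 244 and 273 CPM in the uninduced libraries. It rose on induction (log2 fold change 1.17, SE 0.0853, adjusted p = 2.34e-09), with a smaller value in shScramble cells (log2 fold change 0.36, adjusted p = 0.0407), and the interaction test gave an adjusted p of 6.45e-05. SQSTM1, the autophagy receptor p62, had 620.0, 575, 583 and 504 CPM in the induced libraries, against 299.9, 295, 283 and 282 CPM in the uninduced libraries (log2 fold change 0.98, SE 0.0879, adjusted p = 4.33e-08). SQSTM1 shares 20.7% of its exonic bases with MRNIP on the opposite strand, so that reads of these 2 genes could be mixed if strand was not used. MICB, a stress ligand of the natural killer cell receptor NKG2D, had 172, 168, 170.4 and 162 CPM in the induced libraries, against 82.8, 84.2, 83.8 and 87.5 CPM in the uninduced libraries. Its libraries were tight within each group (log2 fold change 0.99, SE 0.0554, adjusted p = 4.16e-11). GNPDA1, which returns glucosamine-6-phosphate to glycolysis, averaged 197 ± 6.34 CPM in induced and 102 ± 4.92 CPM in uninduced cells (SD, n = 4 each), while GFPT1, which works in the other direction, fell as given above. ODC1, the first enzyme of polyamine synthesis, averaged 584 ± 30.6 CPM in induced and 277 ± 18.2 CPM in uninduced cells (SD, n = 4 each).

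**Figure D2:**
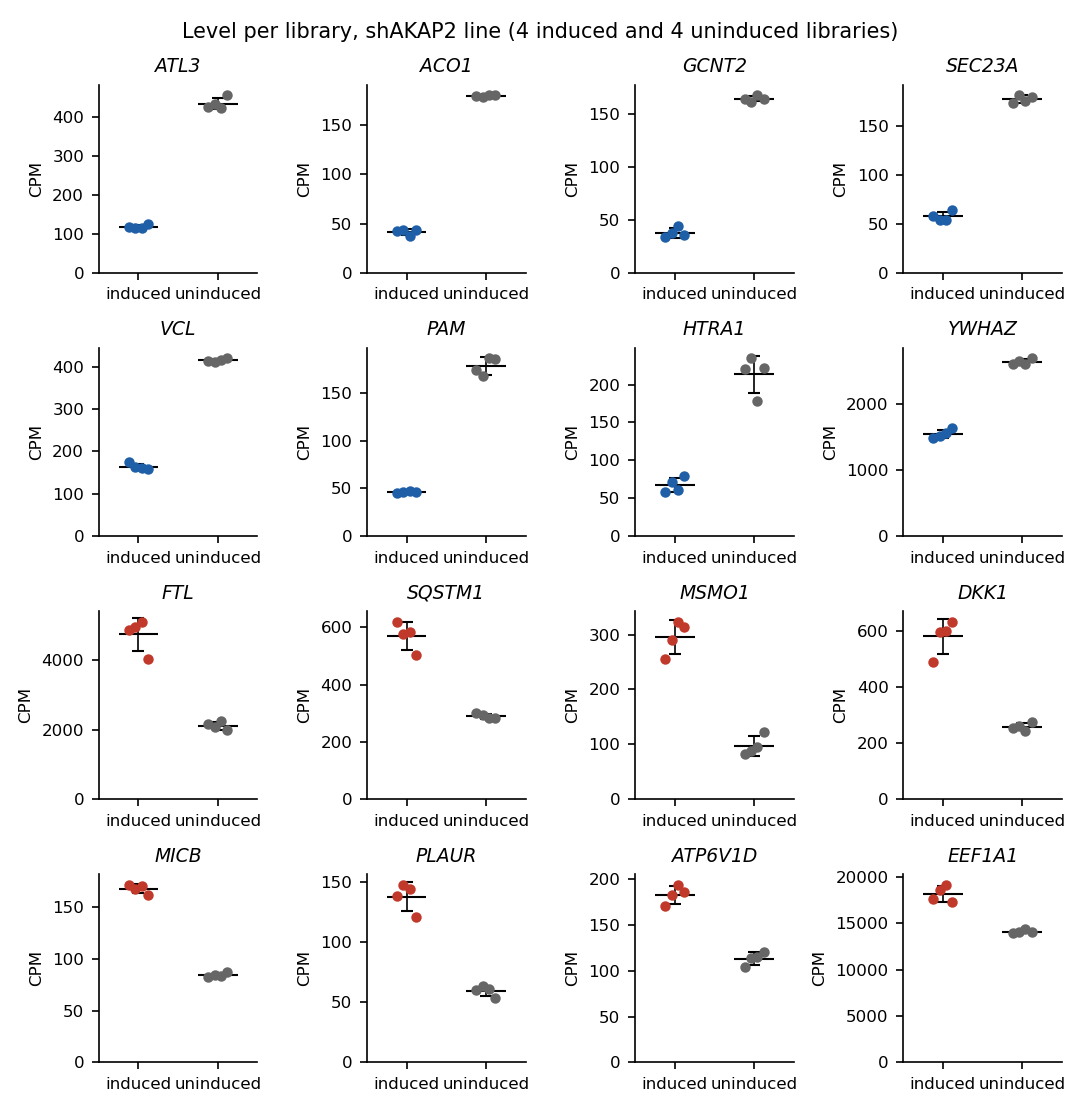
Level in CPM (y axis, from 0) of 16 genes in each of the 4 induced and 4 uninduced shAKAP2 libraries (points), with the mean (bar) and SD (error bar). The first 8 panels show genes that were lower in every induced library and the last 8 show genes that were higher in every induced library.

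Counted in molecules sequenced and not in folds, the response lay elsewhere. The largest gain of any gene named by this measure was that of EEF1A1, the elongation factor that brings tRNAs to the ribosome, at 18144 ± 852 against 14109 ± 189 CPM in induced against uninduced cells, a gain of 4035 CPM. FTL followed with 2631 CPM, and then ACTB (beta-actin) with 1294 CPM, THBS1 (thrombospondin 1, a matrix glycoprotein) with 660.1 CPM and PTMA (prothymosin alpha) with 475 CPM. Their log2 fold changes apart from FTL were small, from 0.31 for ACTB to 0.49 for THBS1. The call of THBS1 was lost when induced replicate 1 was left out (adjusted p = 0.0758) and without uninduced replicate 2, 3 or 4 (0.0506, 0.0536 and 0.0619). EEF1A1, FTL, ACTB and PTMA have processed pseudogenes, so the split of their reads is uncertain.

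On the side of losses, MT-CO1, the mitochondrially encoded subunit 1 of cytochrome oxidase, had 2771, 1685, 2565 and 3417 CPM in the induced libraries, against 4346, 4121, 3433 and 3873 CPM in the uninduced libraries. The groups came close, and the call was lost when any of induced replicates 2 and 3 or uninduced replicates 1, 2 and 4 was left out (adjusted p from 0.0531 to 0.0765). YWHAZ, the 14-3-3 protein zeta that binds phosphorylated proteins, had 1477, 1513, 1554 and 1626 CPM in the induced libraries, against 2600.2, 2644, 2595 and 2686 CPM in the uninduced libraries. Its mean changed by -1089 CPM, with the groups far apart (log2 fold change -0.77, SE 0.0518, adjusted p = 6.1e-10). LDHA, which turns pyruvate into lactate, averaged 2228 ± 63.4 CPM in induced and 2960.1 ± 63.8 CPM in uninduced cells (SD, n = 4 each). TXNRD1, the cytosolic thioredoxin reductase, averaged 730.0 ± 32.8 CPM in induced and 1333 ± 47.3 CPM in uninduced cells (SD, n = 4 each). CAV1, the coat protein of caveolae, averaged 900.4 ± 64.9 CPM in induced and 1425 ± 101 CPM in uninduced cells (SD, n = 4 each).

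The best-supported changes, those with the smallest p among genes at 10 CPM or more, repeated several of these genes. The first on the lower side was PUDP, a phosphatase of pseudouridine 5′-phosphate, which had 11.8, 11.6, 13.3 and 11.1 CPM in the induced libraries, against 74.8, 75.5, 74.7 and 78.3 CPM in the uninduced libraries. This is a fold of 0.158 of the uninduced level, while in the shScramble line the gene was higher with doxycycline (log2 fold change 0.31, adjusted p = 0.033). TFG, a protein of ER exit sites, averaged 43.2 ± 2.25 CPM in induced and 133 ± 6.36 CPM in uninduced cells (SD, n = 4 each). LPGAT1, an acyltransferase of lysophospholipids in the ER, averaged 49.5 ± 2.29 CPM in induced and 134 ± 1.67 CPM in uninduced cells (SD, n = 4 each). On the higher side stood ADM, the peptide hormone adrenomedullin, with 64.7 ± 3.57 CPM in induced and 27.7 ± 2.27 CPM in uninduced cells (SD, n = 4 each). PLAUR, the receptor that holds urokinase at the cell surface, had 139, 148, 144 and 121 CPM in the induced libraries, against 60.1, 63.3, 61.5 and 53.6 CPM in the uninduced libraries. Its groups did not overlap (log2 fold change 1.21, SE 0.0893, adjusted p = 2.59e-09). TLE1, a corepressor of the Groucho family, averaged 109 ± 2.91 CPM in induced and 58.9 ± 3.51 CPM in uninduced cells (SD, n = 4 each), and TMEM245, a membrane protein, averaged 447 ± 21.5 CPM in induced and 253 ± 5.96 CPM in uninduced cells (SD, n = 4 each). TMEM245 was also called higher with doxycycline in the shScramble line (log2 fold change 0.31, adjusted p = 0.00576).

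To go from single genes to pathways, 81 gene lists written from general knowledge were counted, 76 of processes and 5 of cell markers. Each list is described by its members called and its median beside the shares over all genes, 13.1% higher and 15.2% lower, and beside the median of all genes, 0.00. The lists were not matched for level, and the share called grew with level as given above. Among genes of 100 to 300 CPM, 21.7% were called higher and 18.7% lower. A list of well-expressed genes can therefore exceed the shares over all genes through its level. The lists are not independent of earlier results of these data. Members named are the up to 4 called members with the smallest p and no overlap between the groups, unless said otherwise. Counts of members that moved by over 1.5 times when 1 of the 8 libraries was left out are given with those libraries.

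**Figure D3:**
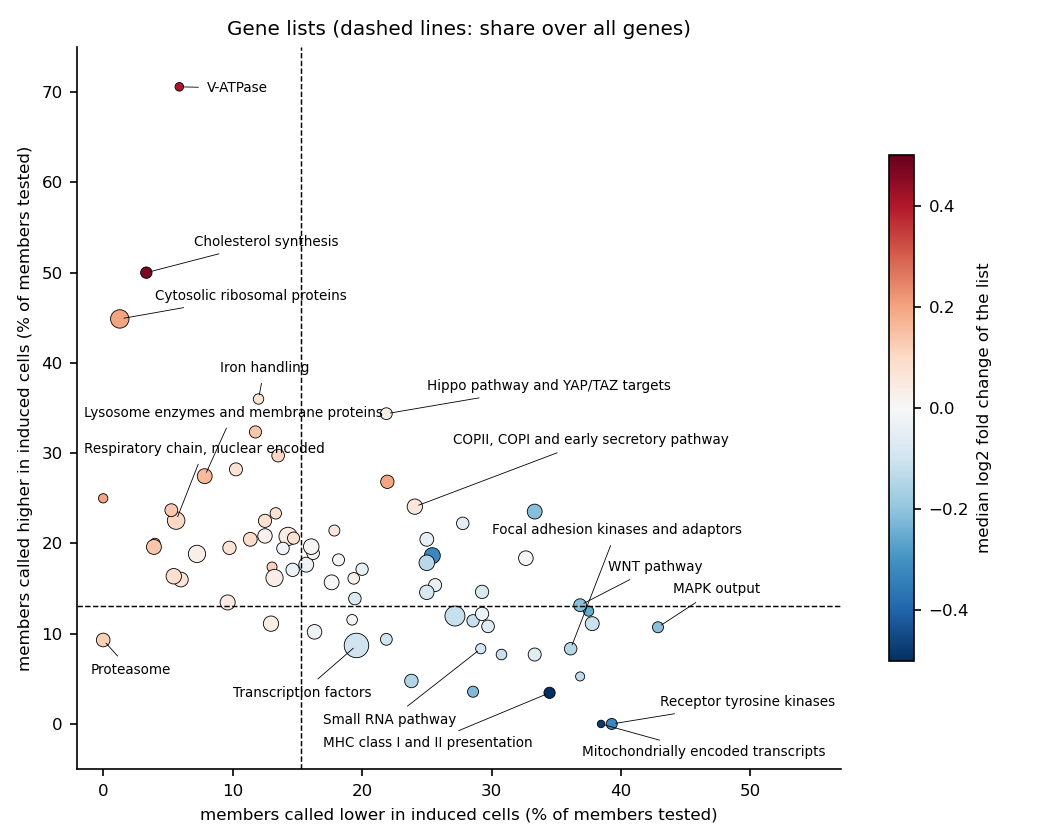
Members called higher (y axis) and lower (x axis) in induced cells, each as a percentage of the members tested, for lists of processes. Circle area stands for the number of members tested and colour for the list's median log2 fold change, and dashed lines mark the shares over all genes (13.1% higher and 15.2% lower).

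The protein kinase A system itself, 26 kinase subunits, inhibitors and anchors, had 8 members called lower and 2 higher (1 without induced replicate 1 or 4 or uninduced replicate 4), with a median log2 fold change of -0.12. Of the 8 lower, 3 hold the word GAACACA in the 3′ UTR. Over the 19 members without it in any annotated 3′ UTR the median was -0.11. Besides AKAP2 itself, PRKAR1A, the main regulatory subunit, was at -0.65 ± 0.0655 (SE) on the log2 scale, PRKACB, a catalytic subunit, changed by -0.75, and AKAP9, an anchor of the Golgi and centrosome, by -0.96. Genes of cAMP and cGMP turnover had 9 of 24 called lower (37.5%) and 3 higher. Of the 9 lower, 3 hold the word in the 3′ UTR, PDE4D among them. The median was -0.25 over all members and -0.13 over the 18 without the word in any annotated 3′ UTR. The cAMP phosphodiesterase PDE4D averaged 21.5 ± 1.07 CPM in induced and 51.1 ± 3.59 CPM in uninduced cells (SD, n = 4 each). PDE8A and PDE4A, also cAMP phosphodiesterases, changed by -0.68 and -0.61 on the log2 scale, and GNAI2, an inhibitory G protein subunit, by -0.63.

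At focal adhesions, kinases and adaptors were mostly lower where they were called. Of 36 tested, 13 fell (36.1%) and 3 rose (8.33%), and 9 of those that fell also passed the interaction test. Of the 13 that fell, 4 hold the word in the 3′ UTR, PTK2 and RSU1 among them. The median was -0.14 over all members and -0.11 over the 30 without the word in any annotated 3′ UTR. PTK2, the focal adhesion kinase, had 74.2, 68.1, 71.8 and 74.6 CPM in the induced libraries, against 176, 179, 167 and 162 CPM in the uninduced libraries. It fell to less than the lowest uninduced library in all 4 (log2 fold change -1.24, SE 0.0584, adjusted p = 3.06e-12). GRB2, the adaptor that links receptors to RAS, averaged 93.6 ± 2.86 CPM in induced and 171 ± 3.68 CPM in uninduced cells (SD, n = 4 each). RSU1, a partner of the integrin-linked kinase complex, averaged 59.8 ± 3.32 CPM in induced and 101 ± 4.07 CPM in uninduced cells (SD, n = 4 each), and ARHGEF6, an exchange factor for RAC and CDC42, averaged 1.25 ± 0.214 CPM in induced and 4.99 ± 0.980 CPM in uninduced cells (SD, n = 4 each).

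The structural proteins of the same sites were lower in 10 and higher in 4 of 35, with a median of -0.11. Of the 10 lower, 3 hold the word in the 3′ UTR, VCL and LPP among them. Over the 28 members without it in any annotated 3′ UTR the median was 0.01. What part the word has in these changes was not tested. VCL, vinculin, which links talin to actin, had 174, 163, 161 and 157 CPM in the induced libraries, against 413, 411, 416 and 419.5 CPM in the uninduced libraries (log2 fold change -1.34, SE 0.0680, adjusted p = 9.19e-12). VCL shares 11.1% of its exonic bases with AP3M1 on the opposite strand. LPP, a LIM protein of the zyxin family, averaged 40.3 ± 9.91 CPM in induced and 94.7 ± 4.76 CPM in uninduced cells (SD, n = 4 each). PPFIA1, a liprin, and CSRP1, a LIM protein that binds actinin, changed by -0.54 and -0.38 on the log2 scale. Chosen after their values were seen, talin 1 (TLN1) with -0.15 ± 0.127, the actinin ACTN4 with -0.11 ± 0.0700 and zyxin (ZYX) with 0.14 ± 0.120 were not called. Integrins and their partners had 7 of 19 lower (36.8%) and 1 higher. ITGA2, a collagen-binding chain, averaged 86.96 ± 11.8 CPM in induced and 140.1 ± 8.04 CPM in uninduced cells (SD, n = 4 each), and ITGA5, the fibronectin-binding partner of ITGB1, averaged 49.4 ± 3.18 CPM in induced and 66.1 ± 4.06 CPM in uninduced cells (SD, n = 4 each). ITGB4 and ITGB5 changed by -0.61 and -0.44. The 1 member called higher, named after its value was seen, was ITGB3, the beta chain of the vitronectin receptor, with 1.79 ± 0.554 CPM in induced and 0.736 ± 0.175 CPM in uninduced cells (SD, n = 4 each). That call was lost without induced replicate 1 (adjusted p = 0.0937) and without uninduced replicate 1, 3 or 4 (0.0725, 0.0698 and 0.0736).

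Actin, myosin and tropomyosin genes had 11 of 39 members higher (28.2%) and 4 lower. TAGLN, an actin-binding protein of contractile cells, averaged 15.8 ± 1.08 CPM in induced and 6.88 ± 0.513 CPM in uninduced cells (SD, n = 4 each), and PFN2, a profilin, averaged 77.6 ± 5.04 CPM in induced and 37.2 ± 1.97 CPM in uninduced cells (SD, n = 4 each). CNN2, a calponin, averaged 355 ± 7.79 CPM in induced and 226 ± 10.2 CPM in uninduced cells (SD, n = 4 each). RDX, radixin, which ties actin to the membrane, fell to 197 ± 7.31 CPM in induced cells, against 323 ± 5.01 CPM in uninduced cells (SD, n = 4 each). The complexes that nucleate branched actin had 5 of 26 lower and 3 higher. WASHC5, of the WASH complex on endosomes, was at -1.15 ± 0.105 on the log2 scale and led the lower members. Tubulins and microtubule regulators had 7 of 32 lower, led by TBCD, a tubulin folding cofactor (-1.32 ± 0.0926), and CLASP1, which stabilises microtubule plus ends (-1.24 ± 0.101). KIF3A, a motor of kinesin II, averaged 10.7 ± 0.918 CPM in induced and 25.9 ± 0.547 CPM in uninduced cells (SD, n = 4 each) and led the 6 kinesin and dynein genes that were lower.

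**Figure D4:**
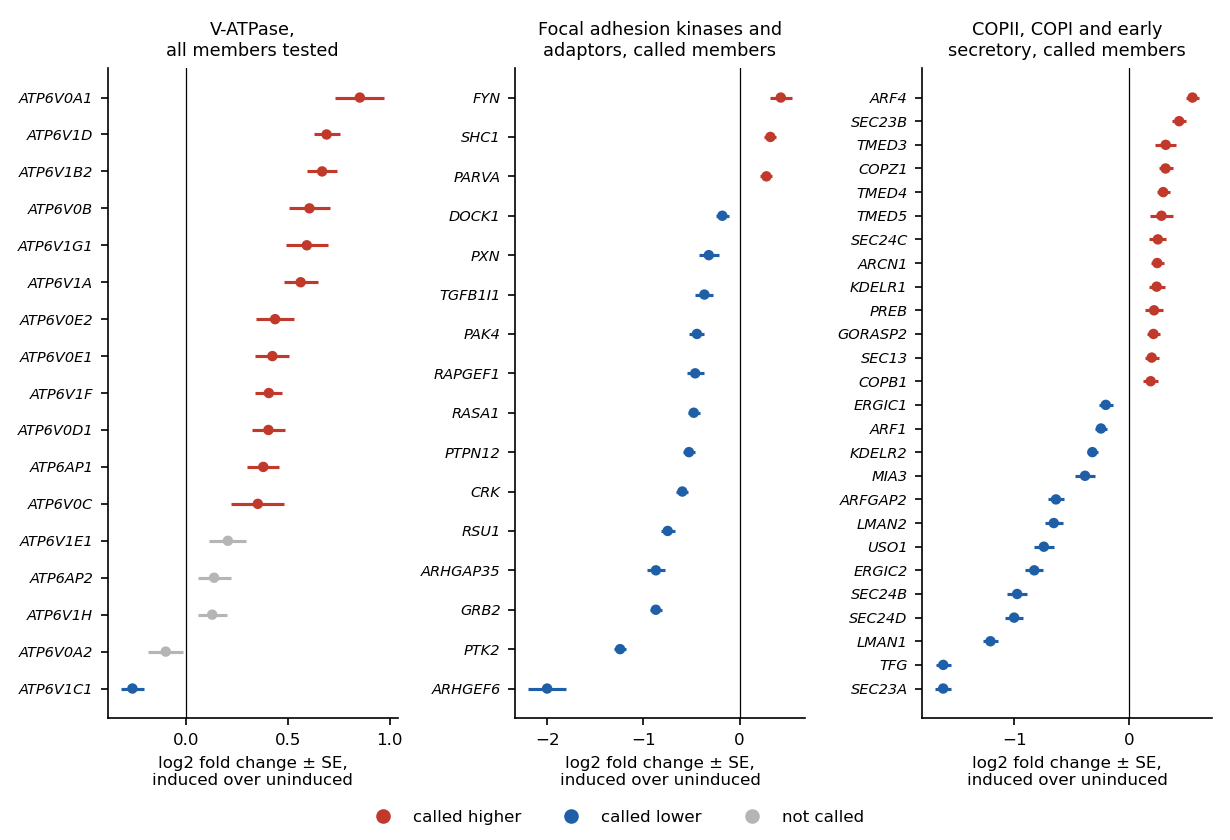
Log2 fold change in induced over uninduced cells (x axis) with its SE (bars) for the 17 V-ATPase genes tested, for the 16 called focal adhesion kinases and adaptors and for the 26 called genes of the early secretory pathway. Of the V-ATPase genes 12 were called higher and 1 lower, of the adaptors 3 higher and 13 lower, and of the secretory genes 13 each way.

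Upstream of these, no receptor tyrosine kinase was called higher, and 11 of 28 were lower (39.3%), with a median of -0.33. MET, the receptor of hepatocyte growth factor, had 154, 145, 144 and 150.3 CPM in the induced libraries, against 279.6, 283, 263 and 264 CPM in the uninduced libraries. The groups were well apart (log2 fold change -0.87, SE 0.0826, adjusted p = 8.79e-08). INSR, the insulin receptor, averaged 11.99 ± 1.10 CPM in induced and 23.95 ± 1.09 CPM in uninduced cells (SD, n = 4 each), and MERTK, a receptor in the clearance of dead cells, averaged 5.92 ± 0.709 CPM in induced and 10.8 ± 0.734 CPM in uninduced cells (SD, n = 4 each). EPHA4, an ephrin receptor, averaged 3.41 ± 0.678 CPM in induced and 9.30 ± 1.15 CPM in uninduced cells (SD, n = 4 each). RAS, RAF and MAP kinases had 17 of 45 lower and 5 higher, and 3 were higher without induced replicate 3 or 4 or uninduced replicate 3. Of the 17 lower, 4 hold the word in the 3′ UTR, MAPK14 and MAP2K1 among them. The median was -0.11 over all members and 0.03 over the 36 without the word in any annotated 3′ UTR. MAPK14, the kinase p38 alpha, averaged 139 ± 3.59 CPM in induced and 270.2 ± 9.96 CPM in uninduced cells (SD, n = 4 each), and MAP2K1, the kinase MEK1, averaged 52.5 ± 3.19 CPM in induced and 86.4 ± 2.53 CPM in uninduced cells (SD, n = 4 each). Of the kinases that activate p38, MAP2K6 fell to 0.291 ± 0.0907 CPM in induced cells, against 2.01 ± 0.443 CPM in uninduced cells (SD, n = 4 each) while MAP2K3 rose to 127 ± 5.69 CPM in induced cells, against 86.97 ± 3.93 CPM in uninduced cells (SD, n = 4 each).

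Genes that the ERK cascade turns on had 12 of 28 lower (42.9%) and 3 higher (10.7%), with a median of -0.21. Over the 23 members without the word in any annotated 3′ UTR the median was -0.06. DUSP6, the phosphatase of ERK, averaged 147 ± 9.24 CPM in induced and 199.8 ± 10.7 CPM in uninduced cells (SD, n = 4 each). It overlaps an antisense gene over 40.5% of its exonic bases. PHLDA1 and IER3, early growth factor response genes, changed by -0.59 and -0.64 on the log2 scale. Other branches were mixed. PI3K, AKT and mTOR genes had 9 higher and 8 lower of 51, and 5 were lower without induced replicate 3 or uninduced replicate 1 or 2. INPP4B, a phosphoinositide phosphatase, and MTOR, the kinase itself, were at -1.34 ± 0.0797 and -1.35 ± 0.144, and EIF4EBP2, an inhibitor of translation that mTOR controls, was at 0.80 ± 0.0711. IL6ST, the shared receptor gp130 of the IL6 family, averaged 199 ± 5.62 CPM in induced and 531 ± 24.9 CPM in uninduced cells (SD, n = 4 each) and holds 2 copies of the word.

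Ligands and secreted signals changed in both directions. Of 59 growth factors and cytokines, 15 were lower and 11 higher. The ligands TGFA and EREG, which bind receptors of the ERBB family, averaged 93.98 ± 4.71 against 236 ± 4.20 CPM and 20.1 ± 2.41 against 49.9 ± 3.74 CPM in induced against uninduced cells. EREG was also called lower with doxycycline in the shScramble line (log2 fold change -0.57, adjusted p = 0.00848). TNFRSF11B, the decoy receptor osteoprotegerin, rose to 27.005 ± 1.59 CPM in induced cells, against 5.07 ± 0.708 CPM in uninduced cells (SD, n = 4 each). The WNT pathway had 14 of 38 lower (36.8%) and 5 higher (3 without induced replicate 1 or 3 or uninduced replicate 2), with a median of -0.21. WNT7B, a ligand, fell to 3.46 ± 0.560 CPM in induced cells, against 18.2 ± 1.22 CPM in uninduced cells (SD, n = 4 each). TNIK, a kinase of the TCF complex, and FZD7, a receptor, were at -1.94 ± 0.135 and -0.90 ± 0.0833 on the log2 scale, while the inhibitors DKK1 and TLE1 rose as given above. In the TGF-beta and BMP pathway, 11 of 37 were lower and 4 higher. TGFBR3, the coreceptor betaglycan, and LTBP1, which stores latent TGF-beta in matrix, were at -1.41 ± 0.110 and -1.27 ± 0.134.

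Matrix genes split as well, 14 lower and 10 higher of 56. Of the 10 higher, only 3 passed the interaction test, and of the 14 lower 13 did. In the shScramble line 7 members of the list were called higher with doxycycline and 0 lower, with a median of 0.25. TNC, tenascin C, fell to 8.83 ± 2.64 CPM in induced cells, against 42.7 ± 0.663 CPM in uninduced cells (SD, n = 4 each). The basement membrane collagens COL4A1 and COL4A2, which are neighbours transcribed from a shared region, rose to 52.1 ± 4.23 CPM in induced cells, against 24.5 ± 1.10 CPM in uninduced cells (SD, n = 4 each) and to 143 ± 12.3 CPM in induced cells, against 78.6 ± 4.97 CPM in uninduced cells (SD, n = 4 each). Proteases, inhibitors and crosslinkers of matrix had 17 lower and 12 higher of 51. PLAT, tissue plasminogen activator, fell to 59.2 ± 7.82 CPM in induced cells, against 119 ± 7.77 CPM in uninduced cells (SD, n = 4 each). ADAMTS12, a matrix protease, was at -0.76 ± 0.0755. Genes that build heparan and chondroitin sulfate had 13 of 39 lower (33.3%) and 3 higher. GLCE, an epimerase of heparan chains, was at -0.89 ± 0.0669 and SDC3, a syndecan core protein, at -1.12 ± 0.0847.

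Iron handling genes include ACO1. Of 25 tested, 9 were higher (36%) and 3 lower, with a median of 0.07. ACO1 was the largest drop of the list and FTL, FTH1 and CYBRD1 were its most significant rises. FTH1, the ferritin heavy chain, had 787, 734, 789 and 672 CPM in the induced libraries, against 407, 395, 397 and 378 CPM in the uninduced libraries. The groups were far apart (log2 fold change 0.92, SE 0.114, adjusted p = 5.76e-06), though FTH1 shares 62.4% of its exonic bases with BEST1 on the opposite strand. CYBRD1, a ferric reductase, averaged 347 ± 6.75 CPM in induced and 193 ± 6.70 CPM in uninduced cells (SD, n = 4 each), and its 3′ UTR holds the word. The second iron regulatory protein, IREB2, named after its value was seen, averaged 119 ± 5.51 CPM in induced and 95.03 ± 3.78 CPM in uninduced cells (SD, n = 4 each) and was called higher with a log2 fold change of 0.33 ± 0.0745 (SE).

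The vacuolar ATPase (V-ATPase), the proton pump that acidifies lysosomes and endosomes, was the list with the highest share called higher among the 81. Of its 17 genes, all tested, 12 were higher (70.6%) and 1 lower, with a median of 0.41, and 10 of those higher passed the interaction test. ATP6V1D, of the stalk, had 171, 182, 194 and 186 CPM in the induced libraries, against 104, 114, 115 and 121 CPM in the uninduced libraries. All induced libraries were above all uninduced ones (log2 fold change 0.69, SE 0.0640, adjusted p = 6.66e-08). ATP6V1A and ATP6V1B2, the subunits that hydrolyse ATP, were at 0.56 ± 0.0829 and 0.67 ± 0.0722 on the log2 scale, and ATP6V0A1, of the membrane sector, at 0.85 ± 0.121. Named after its value was seen, ATP6V1C1, the only member called lower, was at -0.26 ± 0.0554. In the shScramble line the list's median was -0.02, with none higher and 1 lower.

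Other parts of the lysosomal system were shifted the same way in count. Lysosomal enzymes and membrane proteins had 14 of 51 higher (27.5%) and 4 lower, with a median of 0.16. Of those 14 higher, only 3 passed the interaction test. PPT1, a thioesterase that removes palmitate, and SMPD1, acid sphingomyelinase, averaged 269 ± 18.3 against 182 ± 8.74 CPM and 85.4 ± 6.997 against 58.4 ± 4.30 CPM in induced against uninduced cells. SGSH and GM2A, in the breakdown of heparan sulfate and gangliosides, were lower, at -0.73 ± 0.119 and -0.54 ± 0.105. Autophagy genes had 9 higher and 5 lower of 40, and without uninduced replicate 2 these counts were 4 and 5. Of the 9 higher, only 3 passed the interaction test. Higher members numbered 5 without induced replicate 4 or uninduced replicate 3, and lower members 3 without induced replicate 2 or 3 or uninduced replicate 1 or 3. MAP1LC3B, which marks autophagosomes, averaged 190.0 ± 7.78 CPM in induced and 137 ± 8.14 CPM in uninduced cells (SD, n = 4 each), and SQSTM1 rose as above, while UVRAG, which promotes autophagosome maturation, was at -0.56 ± 0.0904. Of the small GTPases, RAB7A, which drives fusion with lysosomes, had 96.8, 110.1, 114 and 105 CPM in the induced libraries, against 257, 252, 248 and 246 CPM in the uninduced libraries. It fell by more than its spread (log2 fold change -1.23, SE 0.0593, adjusted p = 4.16e-12), and its 3′ UTR holds the word.

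Cholesterol synthesis and uptake genes had 15 of 30 higher (50.0%) and 1 lower, with a median of 0.47 in the shAKAP2 and -0.07 in the shScramble line. SQLE, squalene epoxidase, had 51.8, 56.7, 56.7 and 60.5 CPM in the induced libraries, against 32.8, 29.2, 29.1 and 34.1 CPM in the uninduced libraries (log2 fold change 0.85, SE 0.164, adjusted p = 0.00072). SC5D and NSDHL, enzymes of the last steps, averaged 152 ± 6.96 against 79.6 ± 6.58 CPM and 37.9 ± 1.37 against 25.6 ± 1.999 CPM in induced against uninduced cells. Of the 15 members higher, 9 passed the interaction test. Fatty acid and lipid synthesis had 12 of 41 lower and 5 higher. ACADM, a dehydrogenase of fatty acid oxidation that the list also holds, fell to 12.97 ± 1.91 CPM in induced cells, against 52.6 ± 3.19 CPM in uninduced cells (SD, n = 4 each), and ELOVL6, an elongase, to 100.4 ± 9.37 CPM in induced cells, against 217 ± 11.2 CPM in uninduced cells (SD, n = 4 each).

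In the early secretory pathway, 13 of 54 genes were higher and 13 lower, yet the sizes differed. Leaving out 1 library gave 8 to 11 higher, with 8 without induced replicate 3, and 12 to 13 lower. The 4 named members were all lower: SEC23A and TFG as given above, LMAN1, a cargo receptor for glycoproteins, at -1.21 ± 0.0628 and SEC24D, which selects cargo, at -1.003 ± 0.0788. Chosen after their values were seen, the paralogs of the inner coat moved unequally. SEC23B, the paralog of SEC23A, had 117, 119.8, 119 and 117 CPM in the induced libraries, against 87.4, 80.8, 91.98 and 87.4 CPM in the uninduced libraries (log2 fold change 0.44, SE 0.0602, adjusted p = 1.17e-05). SEC24B was at -0.98 ± 0.0859. Among the genes higher no log2 fold change was above that of ARF4, 0.56. ER chaperones and genes of the unfolded protein response had 11 of 34 higher (32.4%) and 4 lower, and 7 were higher without induced replicate 2. Of the 11 higher, 4 passed the interaction test. The lower ones included P4HB, protein disulfide isomerase, with 345 ± 12.98 CPM in induced and 678 ± 30.3 CPM in uninduced cells (SD, n = 4 each), and EDEM1 and SEL1L of ER-associated degradation at -1.20 ± 0.0886 and -0.77 ± 0.102. HYOU1, an ER chaperone induced by low oxygen, was higher at 0.45 ± 0.0731.

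Ribosomal protein genes had small changes, nearly all of those called upward. Of 78, 35 were higher (44.9%) and 1 lower, and the median log2 fold change was 0.20 in the shAKAP2 and -0.09 in the shScramble line. RPL22 and RPL3 averaged 410.2 ± 9.03 against 325 ± 8.95 CPM and 1252 ± 50.6 against 993 ± 21.9 CPM in induced against uninduced cells. The exception was RPS7, which had 491, 524, 540.5 and 525 CPM in the induced libraries, against 754, 788, 794 and 747 CPM in the uninduced libraries. It fell in all 4 induced libraries (log2 fold change -0.57, SE 0.0948, adjusted p = 0.000121). Ribosomal protein genes have many pseudogenes, so these counts are uncertain. Leaving out 1 of the 8 libraries gave 20 to 35 members higher, with 20 to 23 without induced replicate 2 or 3 or uninduced replicate 1, 2 or 4, and 1 lower each time. Translation factors had 10 higher and 6 lower of 48, with EIF4A2, an RNA helicase, at 0.82 ± 0.0904 and PABPC1, which binds poly(A) tails, at 0.46 ± 0.0573. EIF2S1, the alpha subunit of eIF2, was lower at -0.54 ± 0.0823. Of tRNA synthetases, NARS and AARS were at -0.96 ± 0.0930 and -0.77 ± 0.0977, while TARS and YARS were higher at 0.38 ± 0.0675 and 0.41 ± 0.0834.

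Nuclear-encoded subunits of the respiratory chain had 16 of 71 higher (22.5%) and 4 lower. Of the 16 higher, 5 passed the interaction test. ATP5MF, a small subunit of the ATP synthase, had 21.99, 25.9, 26.4 and 26.3 CPM in the induced libraries, against 114, 118, 124 and 117 CPM in the uninduced libraries. No other nuclear-encoded subunit fell by as much on the log2 scale (log2 fold change -2.23, SE 0.0993, adjusted p = 1.58e-12). In the mitochondrial ribosome, 16 of 77 were higher and 11 lower, and without induced replicate 2 these counts were 9 and 11. Without induced replicate 3 or uninduced replicate 3, 10 were higher. MRPS33, a small-subunit protein whose 3′ UTR holds the word in 2 copies, had 10.3, 12.02, 9.47 and 10.1 CPM in the induced libraries, against 48.4, 50.1, 46.5 and 46.1 CPM in the uninduced libraries (log2 fold change -2.19, SE 0.0976, adjusted p = 1.58e-12). MRPS10 and MRPS27 of the same subunit were at -1.17 ± 0.0620 and -1.10 ± 0.0691. The 13 mitochondrially encoded transcripts were all below 0 on the log2 scale, with a median of -0.48 and 5 called lower, among them MT-ND6, MT-ND5 and MT-CYB at -0.87 ± 0.174, -0.83 ± 0.169 and -0.78 ± 0.173. The count of called members was 10 without induced replicate 4 and 3 without induced replicate 3 or uninduced replicate 1 or 2. Their part of the counts overlapped between the groups, as given above.

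In metabolism, TALDO1, transaldolase of the pentose phosphate pathway, averaged 432 ± 23.6 CPM in induced and 255 ± 9.22 CPM in uninduced cells (SD, n = 4 each), and SLC2A3, a glucose transporter, averaged 121 ± 7.33 CPM in induced and 51.3 ± 2.001 CPM in uninduced cells (SD, n = 4 each). The glycolysis and pentose phosphate list as a whole had 6 of 33 higher and 6 lower. Hypoxia genes had 8 of 28 lower (28.6%) and 1 higher, which was ADM. VEGFA, the endothelial growth factor, and PLOD2, which hydroxylates collagen lysines, were at -0.57 ± 0.0578 and -1.40 ± 0.223. PAICS, an enzyme of purine synthesis, fell to 205 ± 2.86 CPM in induced cells, against 545 ± 11.8 CPM in uninduced cells (SD, n = 4 each), and PSAT1, of serine synthesis, to 108 ± 6.89 CPM in induced cells, against 226 ± 18.8 CPM in uninduced cells (SD, n = 4 each). Among antioxidant genes, 11 of 37 were higher (29.7%). TXN, thioredoxin, rose to 491 ± 17.8 CPM in induced cells, against 360.4 ± 7.73 CPM in uninduced cells (SD, n = 4 each), while the enzyme that reduces it, TXNRD1, fell as given above.

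Hairpin RNAs themselves depend on the small RNA machinery. Small RNA pathway genes had 7 of 24 lower (29.2%) and 2 higher (1 without induced replicate 2, 3 or 4 or uninduced replicate 1, 2 or 3). TNRC6B, the scaffold that Argonautes recruit, was at -1.01 ± 0.130 on the log2 scale, with 2 copies of the word. AGO3 and AGO1 were at -1.003 ± 0.131 and -0.76 ± 0.108 and AGO4 at 0.67 ± 0.141. AGO2, the Argonaute that cuts its targets, named after its value was seen, was at -0.01 ± 0.147 and was not called. Splicing factors had 13 of 69 higher and 5 lower, with 6 to 8 higher when any of the 8 libraries but induced replicate 1 was left out and 11 without that one. Those lower included HNRNPF with 228 ± 10.3 CPM in induced and 419 ± 6.82 CPM in uninduced cells (SD, n = 4 each) and SF3B1, a core part of the U2 complex, with 247 ± 13.4 CPM in induced and 443 ± 12.5 CPM in uninduced cells (SD, n = 4 each).

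In the nucleus, chromatin modifiers had 25 of 92 lower (27.2%) and 11 higher. KDM5B, a histone H3 demethylase, and SETD2, a histone H3 methyltransferase, were at -1.03 ± 0.119 and -0.85 ± 0.0963. Transcription factors had 27 of 138 lower (19.6%) and 12 higher. MEF2A, NFIB and ZEB1 averaged 29.6 ± 2.05 against 64.7 ± 3.46 CPM, 9.50 ± 0.896 against 25.8 ± 2.12 CPM and 67.6 ± 2.89 against 99.7 ± 3.58 CPM in induced against uninduced cells. ZEB1 is a repressor known from epithelial to mesenchymal transition.

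DNA replication genes had 10 of 51 higher (19.6%) and 2 lower, with ORC5 of the origin recognition complex at 0.63 ± 0.102 and MCM6 of the replicative helicase at 0.36 ± 0.0691. Mitosis genes had 7 of 52 higher and 5 lower, with 2 or 3 lower without induced replicate 2, 3 or 4 or uninduced replicate 2, 3 or 4. INCENP and AURKB, which work in a shared complex at centromeres, were at -0.71 ± 0.135 and 0.56 ± 0.118. WEE1, the kinase that holds CDK1 inactive, averaged 115 ± 6.003 CPM in induced and 64.1 ± 3.42 CPM in uninduced cells (SD, n = 4 each). The proteasome had 4 of 43 higher (9.30%) and none lower, and 9 were higher without induced replicate 1. This count rested on the setting, with 23 higher and 3 lower in the fit on the 8 shAKAP2 libraries alone, 21 higher without the shScramble libraries of replicate 1, and 14 with upper-quartile scaling.

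Immune genes were mostly lower where called. Antigen presentation genes had 10 of 29 lower (34.5%) and 1 higher (none without induced replicate 1, 2 or 3 or uninduced replicate 1, 3 or 4), with a median of -0.51. CIITA, the activator of MHC class II genes, averaged 1.60 ± 0.446 CPM in induced and 6.68 ± 0.306 CPM in uninduced cells (SD, n = 4 each), a low level. CIITA shares 11.6% of its exonic bases with DEXI on the opposite strand and 11.5% with AC133065.3 on the same strand. PSMB10, an immunoproteasome subunit, averaged 5.99 ± 0.590 CPM in induced and 11.9 ± 1.54 CPM in uninduced cells (SD, n = 4 each). Interferon-stimulated genes had 10 of 42 lower and 2 higher (1 without induced replicate 3 or uninduced replicate 2). DDX58, the RNA sensor RIG-I, averaged 64.03 ± 3.35 CPM in induced and 98.8 ± 3.47 CPM in uninduced cells (SD, n = 4 each), and DDX60, another helicase of that response, averaged 24.6 ± 1.33 CPM in induced and 39.7 ± 2.66 CPM in uninduced cells (SD, n = 4 each). LAPTM5, a lysosomal protein of blood cells and one of the blood cell markers counted above, was lower too, at -0.45 ± 0.112.

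Over all genes, the word GAACACA was found more often in the lower transcripts than in the rest. The 3′ UTR of the transcript with the longest coding sequence was read for 12698 genes tested, on the transcript strand only. The word was found in 27.5% of 2140 genes called lower (95% Wilson interval 25.7% to 29.5%), 4.36% of 1905 called higher (3.53% to 5.37%) and 7.93% of 8653 not called (7.38% to 8.52%), and in 10.7% of all. Of 16384 words of 7 letters, none had a larger difference between lower and uncalled genes. The next were AGAACAC and AACACAA, which overlap it, and then words of A and T. In coding sequences the shares were 22.3% of genes lower, 6.40% of those higher and 13.3% of those not called, and in 5′ UTRs they were 1.17%, 0.997% and 1.11%.

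Genes lower in induced cells also had longer 3′ UTRs, with a median of 1424 bases, against 1014 in genes higher and 905 in genes not called. When genes were split into 4 equal classes by 3′ UTR length, the word was in 7.29% of lower and 0.649% of uncalled genes in the shortest and in 44.9% and 21.7% in the longest. The 2 middle classes gave 20.2% against 3.12% and 25.4% against 7.88%. Genes with more copies were called lower more often, with most of the rise between no copy and 1 copy. These classes were not split by 3′ UTR length. With no copy, 13.7% of 11340 genes were called lower. With 1 copy it was 42.6% of 1181, with 2 copies 47.6% of 145 and with 3 or more 53.1% of 32. Median log2 fold changes over these classes were 0.03, -0.28, -0.28 and -0.40 in the shAKAP2 line and 0.00, 0.02, 0.01 and 0.08 in the shScramble line. Counts also varied with the letter after the word. Where it was A, 54.2% of 253 genes were called lower, with a median of -0.48, and where it was C, 35.1% of 228, with a median of -0.20. Among 11340 genes with no copy in the 3′ UTR, 12.1% were called lower with none in the coding sequence either and 23.0% with 1 copy there.

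**Figure D5:**
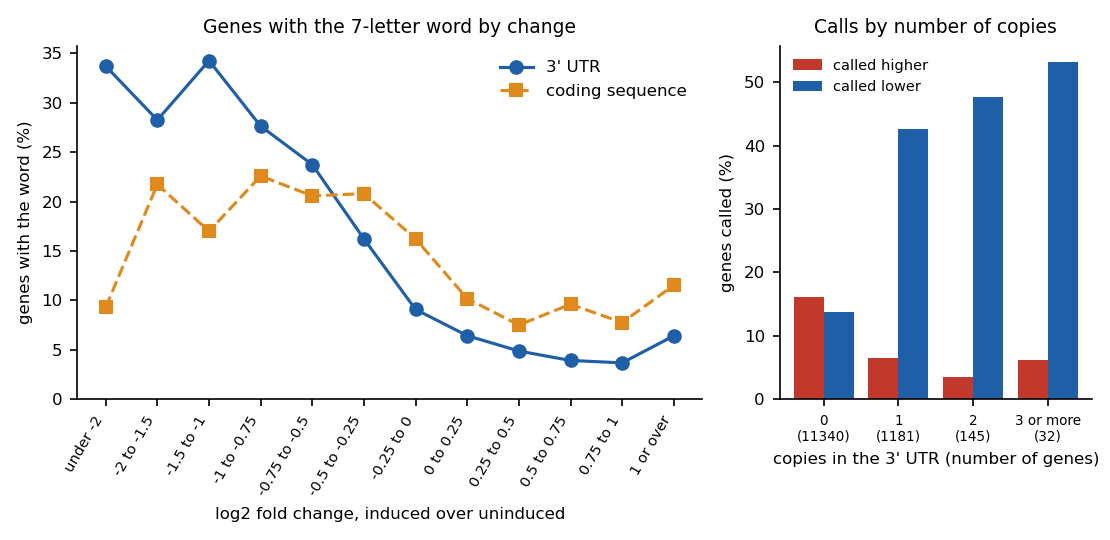
Left, percentage of genes with GAACACA in the 3′ UTR (circles) or coding sequence (squares) by class of log2 fold change in induced over uninduced cells. Right, percentage of genes called higher and lower by the number of copies in the 3′ UTR, from 13.7% lower with none to 53.1% lower with 3 or more.

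Of 32 genes with 3 or more copies, 17 were called lower and 2 higher. The 4 described next were named for their small p and lie toward the lower end. KLF12, a transcriptional repressor with 4 copies, averaged 12.1 ± 0.934 CPM in induced and 30.4 ± 1.96 CPM in uninduced cells (SD, n = 4 each). SLC16A7, a carrier of pyruvate and lactate with 3, averaged 6.88 ± 1.11 CPM in induced and 19.2 ± 2.67 CPM in uninduced cells (SD, n = 4 each). KLHDC10 and HSDL1, also with 3, were at -1.05 ± 0.0892 and -1.01 ± 0.0894. Copies did not fix the direction in each gene, since CYBRD1 rose with 1 copy, and DCP2, the enzyme that removes mRNA caps, rose with 2 (0.68 ± 0.0820). Of 124 lower genes with printed values and a 3′ UTR read, 59 hold no copy in it, among them HTRA1, YWHAZ, CAV1, GRB2 and MET. Of these 59, 13 hold the word in another annotated 3′ UTR, as PAM and PUDP do, and 13 in the coding sequence, as GFPT1 does.

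In the shScramble line, doxycycline gave 87 genes higher (0.559%) and 81 lower (0.520%), together 1.08% of the same genes in the same fit. Of the genes called in the shAKAP2 line, 21 of those higher were also called higher there and 23 of those lower were also called lower. Of the genes with printed values, 13 were called in the shScramble line, 5 in the same direction and 8 in the opposite one. VEGFA was lower there too (-0.33 on the log2 scale). TGFBR3, PLAT, LAPTM5, DDX58, DDX60 and ATP1B1, lower in induced shAKAP2 cells, were higher with doxycycline there, from 0.31 for DDX58 to 0.85 for LAPTM5. EIF4EBP2 was lower there (-0.61). The difference between the lines was tested itself by the interaction term, which called 2802 genes (18.0%), 1172 with the more positive change in the shAKAP2 line (7.53%) and 1630 with the more negative (10.5%). Of the 2032 genes higher in induced shAKAP2 cells 1022 also passed that test, and of the 2373 lower 1468 did.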

How the data were processed

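Poly(A) RNA of 16 samples was sequenced, and the counts per gene deposited by the authors were used as they stand. Alignment to GRCh38 used STAR 2.5.2b and counting used featureCounts of Subread 1.5.2, per the submitters' processing notes. Use of strand and the annotation release are not given. Beside the overlaps given above, IER3 (26.5%), EFNB2 (26.2%), PPT1 (23.4%) and HMGCS1 (15.0%) share exonic bases with genes on the opposite strand. The same holds for MAP2K1 (11.5%), TAGLN (11.4%) and MEF2A (11.1%). PSMB10 shares 34.8% with AC040162.1 on the same strand. Reads of these genes may be mixed as well. Of 57500 genes, 26937 had no count. Genes were filtered with filterByExpr, scaled by TMM and tested with edgeR 4.0.16 in R 4.3.3 (quasi-likelihood, robust, group means over 16 libraries, 12 residual degrees of freedom, biological variation 14.4%). Every adjusted p is Benjamini-Hochberg adjusted over 15566 genes and a call is one under 0.05. All levels printed are CPM computed here. The fit was tested on simulated data. No library was a copy of another. Named genes were called and did not overlap between groups: the 10 largest folds each way at 100 CPM, the 5 largest CPM changes, the 8 smallest p at 10 CPM, up to 4 of each list and up to 5 with 3 or more copies of the word. Others are said to be chosen after their values were seen, or stand as a comparison. Members and lists were chosen with earlier results of these data known, and some list members are not reported here. UTRs came from GENCODE 29. Intervals cover counting error only. Alternatives were limma 3.58.1, DESeq2 1.42.0, scaling, filters, fewer libraries and a replicate block.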

Additional observations from a re-analysis of the deposited data

Results flagged for a closer look

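Among the genes with printed values, 1 library stood apart from the other 3 of its group in 12 of 386 groups of 4. There the gap to the nearest library, as a ratio to the whole range of the group, was above Dixon's 95% value for 4 samples, which chance alone passes in about 1 of 20 groups. Each is given with its CPM, the median CPM of the other 3 libraries and that ratio. The library was the highest of its group for ATP1B1 in uninduced replicate 4 (372 against 315 CPM, ratio 0.868), CAV1 in uninduced replicate 4 (1576 against 1374 CPM, ratio 0.883), EPHA4 in uninduced replicate 2 (11.02 against 8.76 CPM, ratio 0.937) and INPP4B in uninduced replicate 4 (172 against 154 CPM, ratio 0.906). The same held for ITGB3 in uninduced replicate 2 (0.999 against 0.647 CPM, ratio 0.970), NCAPD3 in uninduced replicate 2 (172 against 159.6 CPM, ratio 0.956), PABPC1 in induced replicate 1 (1656 against 1527 CPM, ratio 0.835) and TNC in induced replicate 1 (12.8 against 7.52 CPM, ratio 0.865). It was the lowest for ATP5MF in induced replicate 1 (21.99 against 26.3 CPM, ratio 0.877) and FZD7 in uninduced replicate 3 (117 against 131 CPM, ratio 0.945). The same held for HYOU1 in induced replicate 4 (301 against 322 CPM, ratio 0.925) and TGFBR3 in induced replicate 2 (9.79 against 11.9 CPM, ratio 0.910). ITGB3 lies near 1 CPM, and its call depended on single libraries as given above.

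Doxycycline acted differently in the 2 lines by the interaction test for 1172 genes with the more positive change in the shAKAP2 line and 1630 with the more negative. The shScramble libraries of replicate 1 stand apart from their groups, and the counts without them are given with the other settings.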

How the results depend on the processing

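Replicate numbers are shared by the groups without a stated pairing, and with replicate number as a block the counts were 2735 higher and 2924 lower, with 4375 of the 4405 calls shared. For induced shAKAP2 libraries the correlation with the same-numbered uninduced library was 0.04, 0.01, -0.02 and 0.05, and 2 of 4 correlated best with their own number. The interaction counted 1820 genes higher with the block. The 8 shAKAP2 libraries alone gave 3144 higher and 3169 lower, and leaving out both shScramble replicate 1 libraries gave 2256 higher and 2567 lower in the interaction. Other settings gave higher and lower counts of 2271 and 2536 (DESeq2), 2055 and 2292 (limma-voom), 1714 and 2147 (no filter on low counts), 2037 and 2359 (mean of at least 1 CPM) and 2465 and 2102 (upper-quartile scaling). The last moved the share of calls that were higher to 54.0%, against 46.1%, while the median over all genes shifted by 0.04. Leaving out 1 of the 8 libraries gave 1598 to 1812 higher and 1997 to 2216 lower, with 3507 to 3794 of the calls shared. Of 193 genes with printed values, 186 kept direction and side of the threshold under all of the 16 alternatives that gave a value. AKAP2 and PALM2-AKAP2 have none with the filter at a mean of 1 CPM, nor PALM2-AKAP2 in the fit on 8 libraries. Beside the losses given above, MT-CO1 lost its call in the fit on 8 libraries (adjusted p = 0.0667) and with no filter (0.0832), THBS1 with no filter (0.0929) and ITGB3 and PALM2-AKAP2 in limma-voom (0.0844 and 0.0547). ACTN4 and ZYX passed in the fit on 8 libraries and ACTN4 also without the shScramble replicate 1 libraries (0.0452). AGO2, uncalled, turned to 0.0270 with upper-quartile scaling and ran from -0.116 to 0.0655 when 1 library was left out, above 0 without induced replicate 2 or 3 or uninduced replicate 1. Of 162 counts of list members, 71 moved by over 1.5 times in the fit on 8 libraries, 66 without the shScramble replicate 1 libraries, 40 with the block and 1 to 26 under each other alternative. Of 78 lists with unequal counts, 66 never turned. Among those that did, mRNA decay, nuclear pore, NF-kB and tetraspanin lists turned with upper-quartile scaling. The word was in 33.2% of lower genes over all annotated 3′ UTRs and in 40.2% of genes at least 2-fold lower. What part depth has in the small share of calls below 1 CPM was not tested. The causes of these differences were not tested.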

Other observations

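Axon guidance genes had 12 of 41 lower (29.3%) and 6 higher. EFNB2, a ligand of EPH receptors, averaged 43.001 ± 2.57 CPM in induced and 124 ± 4.06 CPM in uninduced cells (SD, n = 4 each), NRP2, a semaphorin coreceptor, averaged 6.10 ± 0.518 CPM in induced and 24.9 ± 3.26 CPM in uninduced cells (SD, n = 4 each), and NTN4, a netrin, averaged 0.725 ± 0.244 CPM in induced and 4.18 ± 0.612 CPM in uninduced cells (SD, n = 4 each). Ion channels and pumps had 16 of 49 lower (32.7%) and 9 higher. ATP1B1, the beta subunit of the sodium pump, was at -0.97 ± 0.0795 on the log2 scale and PANX1, a channel that releases ATP, at -0.77 ± 0.0729. Cell-cell junction genes had 12 of 48 lower and 7 higher (3 without induced replicate 4, 4 without uninduced replicate 1, 2 or 3), with afadin (AFDN), which ties nectins to actin, at -0.79 ± 0.0960 and CXADR, a junction protein used by viruses to enter, at -0.85 ± 0.128. Hippo pathway and YAP/TAZ target genes had 11 of 32 higher and 7 lower. Of the 11 higher, only 3 passed the interaction test, and of the 7 lower 6 did. In the shScramble line 3 members of the list were called higher with doxycycline and 0 lower. CYR61, a secreted target of YAP, averaged 1113 ± 46.3 CPM in induced and 667 ± 41.4 CPM in uninduced cells (SD, n = 4 each) and was also called higher with doxycycline in the shScramble line (log2 fold change 0.36, adjusted p = 0.00709). MOB1A, which activates the LATS kinases, averaged 171 ± 7.81 CPM in induced and 323 ± 12.7 CPM in uninduced cells (SD, n = 4 each).

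Apoptosis regulators had 11 of 41 higher (26.8%) and 9 lower. The inhibitor XIAP was at -0.64 ± 0.0822 and BAX, which opens the mitochondrial membrane, at 0.38 ± 0.0646. BAX also belongs to the p53 targets, of which 5 of 25 were higher and 1 lower. Replication-dependent histone genes had 5 of 20 higher and none lower, led by HIST1H2BK at 0.74 ± 0.0611 and HIST1H1C at 1.05 ± 0.0904. Most histone mRNAs lack a poly(A) tail, and the libraries were made from RNA held on oligo(dT) beads, so levels of these genes are a partial measure. Proteins of mitochondrial import had 9 of 38 higher and 2 lower. YME1L1, a protease of the inner membrane, was lower at -0.41 ± 0.0538. Nucleotide synthesis genes had 7 higher and 5 lower of 34, with PRPS1, which makes the ribose donor of nucleotides, at 0.76 ± 0.0957. Of fibroblast markers, 3 of the 8 tested were lower and none higher. Their levels were low, as their sum given above shows.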
